A study of Homo sapiens with 12 samples.

Results

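The genes that display peptides to T cells, together with the surface ligands that engage or silence T cells, natural killer cells and macrophages, were followed in SNU449 hepatocellular carcinoma cells with and without Axl, before and after acquired resistance to Regorafenib (Rego). The group was set by name as a list of 38 genes, chosen with earlier results of these data known. Of the 38, 32 were among the 15601 genes of the table that holds all libraries. CIITA, HLA-DPA1, HLA-DPB1, HLA-G, PSMB10 and ULBP3 were not listed in any table and were not analysed here.

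SNU449 is a human liver cancer line with mesenchymal features, and SNU449-Axl- cells are its derivative in which AXL, a receptor tyrosine kinase, was knocked out with CRISPR/Cas9. Each line was used as untreated control cells and as Rego-resistant cells, which had been selected with stepwise increased Rego up to 2 times the IC50, so that the 4 groups are SNU449 control, SNU449-Rego, SNU449-Axl- control and SNU449-Axl- Rego. Each group had 3 libraries of 3′ mRNA sequencing (QuantSeq), which were technical triplicates taken from 1 population of cells. A p-value therefore measures only the spread between these libraries, and a difference between groups cannot be told apart from a difference between the populations. Whether SNU449-Axl- cells are 1 clone is not given in the sources used here.

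Major histocompatibility complex (MHC) class I molecules consist of a heavy chain and beta-2-microglobulin, and carry peptides that the proteasome cuts, the TAP transporter moves into the endoplasmic reticulum and the loading complex places in the groove. Interferon-gamma is known to raise most of these genes through IRF1 and the transactivator NLRC5, and it exchanges proteasome subunits for the immunoproteasome subunits PSMB8, PSMB9 and PSMB10. MHC class II molecules belong to professional antigen-presenting cells, but tumor cells can express them under interferon-gamma through CIITA.

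The levels below are the deposited library values, which rise with expression for well-expressed genes and level off at about 20 for genes with hardly any reads. Group means were also solved by least squares from the authors' mean normalized counts, and these measures did not agree for every gene. For CANX these means were 2988 in SNU449-Rego and 4255 in SNU449-Axl- Rego cells, where the library values differed by 0.13 on the log2 scale. Fold changes are differences of log2(value + 1) and understate the change of weak genes. AXL served as a check of the groups. The library values of AXL were 727, 941 and 715 in SNU449 control and 1237, 815 and 1271 in SNU449-Rego, against 35, 53 and 33 in SNU449-Axl- control and 50, 38 and 52 in SNU449-Axl- Rego cells, and fell by 4.29 with Axl loss in control (adjusted p = 2.16e-09) and by 4.52 in Rego-resistant cells (adjusted p = 1.27e-09). Of 9 leukocyte markers, 5 were listed, with authors' mean normalized counts between 1.12 for PTPRC and 6.19 for CD68, and of 5 hepatocyte markers only APOA1 was listed, with a mean of 1.14. None of these 6 genes was called in any comparison with limma, with up to 2 of the 5 leukocyte markers and none for APOA1 at an unadjusted p under 0.05 in a comparison. Of 4 mesenchymal markers VIM, CDH2 and ZEB1 were not called, whereas FN1, coding for fibronectin, gave -2.24 and 2.47 for Rego in SNU449 and SNU449-Axl- cells and -2.25 and 2.46 for Axl loss in control and Rego-resistant cells, with an interaction of 4.71 (adjusted p = 3.44e-05). Of 4 epithelial markers, KRT8 and KRT18 were listed, and KRT8 was higher by 0.79 and 1.58 with Axl loss in control and Rego-resistant cells. The part of these shifts in the results below was not tested.

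A gene was called when its Benjamini-Hochberg adjusted p in limma was under 0.05 over all 15601 genes. In SNU449-Rego against SNU449 control cells, 5 of the 32 genes were called, 5 of them lower and 0 higher, while 7.81% of all genes were called, 3.5% lower and 4.31% higher. In SNU449-Axl- Rego against SNU449-Axl- control cells, 2 of the 32 genes were called, 1 higher and 1 lower, against 4.35% of all genes, 2.54% higher and 1.81% lower. The median log2 fold change of the 32 genes was -0.18 in the SNU449 background and 0.11 in the SNU449-Axl- background, where the median of all genes was -0.00010 and 0.0066.

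The loss of Axl in control cells went along with 10 called genes of 32, 8 lower and 2 higher, against 7.45% of all genes, 3.43% lower and 4.03% higher, and the median log2 fold change of the 32 genes was -0.19. In Rego-resistant cells, SNU449-Axl- against SNU449 gave 1 called gene, HLA-DRB1, which was higher. Of all genes 4.37% were called there, 2.44% higher and 1.93% lower, and the median of the 32 genes was -0.11. The Rego effect itself differed between the backgrounds for 7 of the 32 genes, more positive in SNU449-Axl- cells for 6 and more negative for 1, while this interaction was called for 5.87% of all genes, 2.92% more positive and 2.95% more negative. In all, 12 of the 32 genes were called in at least 1 comparison and 20 in none, against 16.6% of all genes called in at least 1, and 24 of the 32 had an authors' mean normalized count of at least 10. HLA-DRA is among the called genes but, of the tables of pairs, was listed only in those that hold SNU449 control libraries, so that it entered through the group in which it is high and had to differ. Without HLA-DRA, 4 of 31 genes were called for Rego in SNU449 and 9 of 31 for Axl loss in control cells. For the interaction 6 of 31 were called, and 11 of 31 in at least 1 comparison. HLA-DRB1 stays in these counts, although among the tables of pairs it was missing only from that of SNU449 control and SNU449-Rego. It thus entered through the SNU449-Axl- groups, in which it is high.

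Both the Rego comparison in SNU449 and the Axl comparison in control cells contain the same 3 SNU449 control libraries, so that a gene with a high level in these libraries appears lower in both. Centring each library on its spike-in RNAs shifted the median log2 fold change of all genes to 0.05 and 0.14 for Rego in SNU449 and SNU449-Axl- cells, to 0.21 and 0.31 for Axl loss in control and Rego-resistant cells, and to 0.10 for the interaction. Genes called with this centring were 612 higher and 380 lower for Rego in SNU449 cells, against 673 and 546 as deposited, and 585 and 110 for Rego in SNU449-Axl- cells, against 396 and 282. For Axl loss they were 1257 higher and 231 lower in control cells, against 628 and 535, and 1731 and 68 in Rego-resistant cells, against 381 and 301, and for the interaction 460 and 265, against 455 and 461. With this centring the median of the 32 genes was -0.13, 0.24, 0.02, 0.18 and 0.20, and 4, 2, 8, 6 and 6 of the 32 genes were called in these 5 comparisons, in the same order.

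**Figure D1:**
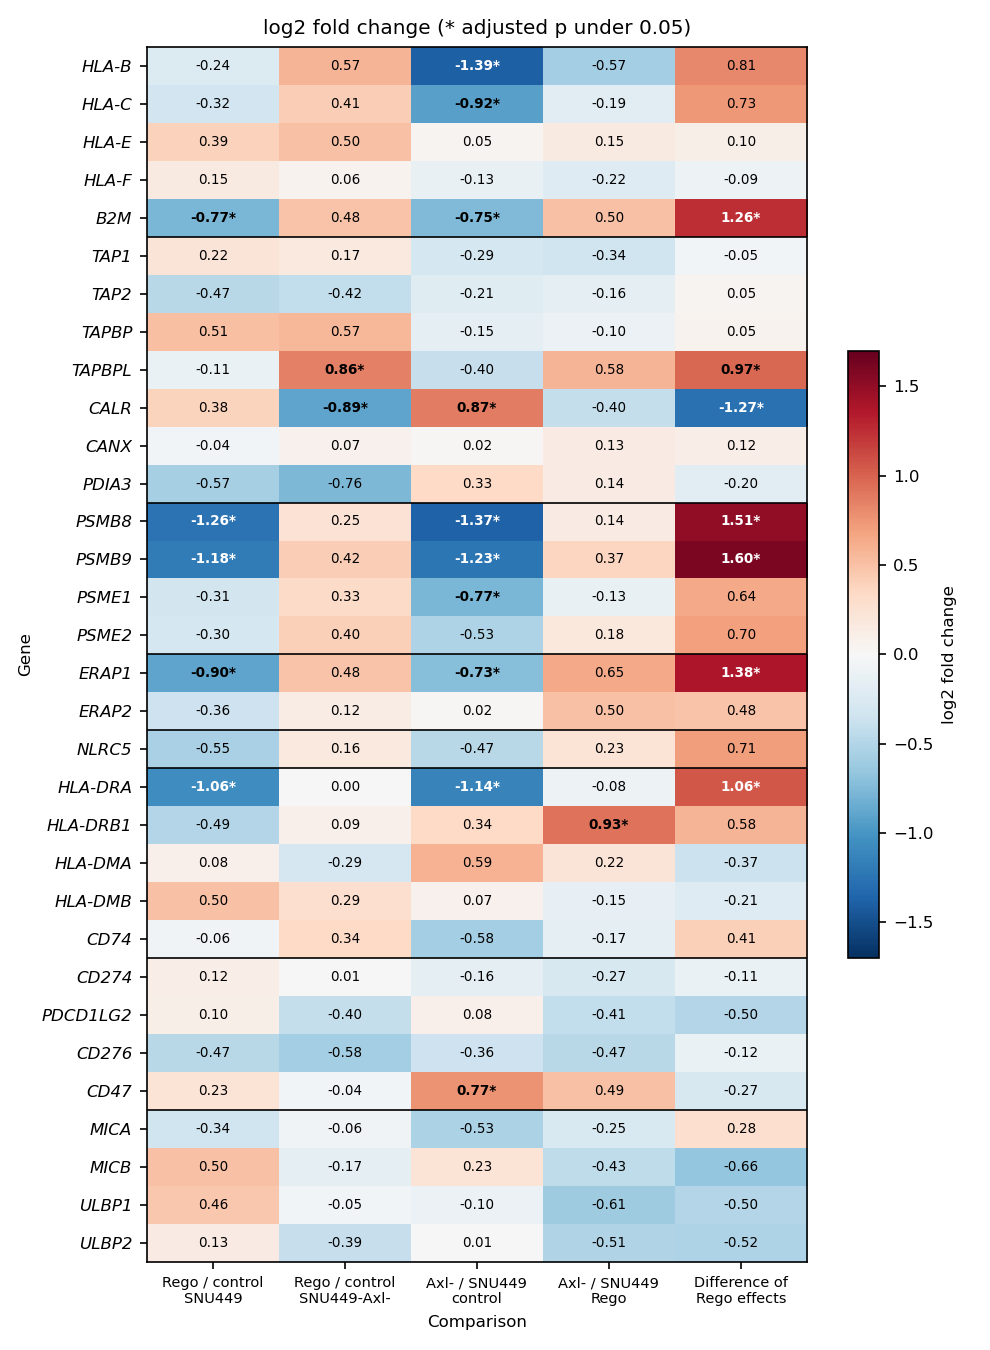
Log2 fold changes of the 32 measured genes (rows, ordered by role) in the 4 comparisons between groups and in the difference of the Rego effect between SNU449-Axl- and SNU449 cells (columns), with values that passed the test in bold with an asterisk. PSMB8, PSMB9, B2M, ERAP1 and HLA-DRA are blue for Rego in SNU449 and for Axl loss in control cells, and red in the last column, of which HLA-DRA entered the tables through its high group.

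The heavy chains HLA-B and HLA-C, which present peptides to CD8 T cells, were lower in SNU449-Axl- control than in SNU449 control cells. HLA-B (ENSG00000234745.14, GRCh38 chr6:31353872-31367067, minus strand) had library values of 718, 522 and 561 in SNU449 control, 366, 523 and 668 in SNU449-Rego, 260, 241 and 186 in SNU449-Axl- control and 337, 349 and 329 in SNU449-Axl- Rego cells. Its SNU449-Axl- control libraries were the lowest of all, and the 3 libraries of SNU449-Rego were widely spread. HLA-B fell by 1.39 on the log2 scale with Axl loss in control cells (SE 0.225, adjusted p = 0.000861), or 2.62-fold. In Rego-resistant cells the difference was -0.57 (SE 0.225, adjusted p = 0.172), and the interaction of 0.81 (SE 0.318, adjusted p = 0.151) was not called.

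HLA-C (ENSG00000204525.18, chr6:31268749-31272130, minus strand), which also serves as a ligand of killer-cell receptors, showed values of 1693, 1438 and 1447 in SNU449 control, 1019, 1442 and 1234 in SNU449-Rego, 788, 768 and 858 in SNU449-Axl- control and 1174, 1004 and 1043 in SNU449-Axl- Rego cells. All SNU449-Axl- control libraries lay below every other library. HLA-C fell by 0.92 with Axl loss in control cells (SE 0.185, adjusted p = 0.00452) and differed by -0.19 in Rego-resistant cells (SE 0.185, adjusted p = 0.664). Both HLA calls held when any library was left out. Alleles and relatives of the class I genes share sequence, so that reads of 1 gene may have been counted for another or lost.

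Beta-2-microglobulin, encoded by B2M (ENSG00000166710.23, chr15:44711358-44718851, plus strand), is the common light chain of all class I molecules. Its values were 2485, 2406 and 3585 in SNU449 control, 1728, 1619 and 1529 in SNU449-Rego, 1935, 1705 and 1352 in SNU449-Axl- control and 2055, 2571 and 2303 in SNU449-Axl- Rego cells. SNU449 control libraries exceeded those of SNU449-Rego and of SNU449-Axl- control, whereas in SNU449-Axl- cells the Rego-resistant libraries were the higher ones. B2M fell by 0.77 with Rego resistance in SNU449 (SE 0.204, adjusted p = 0.0243) and by 0.75 with Axl loss in control cells (SE 0.204, adjusted p = 0.0299). In the SNU449-Axl- background the Rego difference was 0.48 (SE 0.204, adjusted p = 0.204), and the interaction of 1.26 was called (SE 0.289, adjusted p = 0.0135).

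The 2 pairwise B2M calls were the less stable ones. For Rego in SNU449, B2M was not called without SNU449 control replicate 3 or without any 1 of the SNU449-Rego libraries, with values between -0.91 and -0.53 over all left-out libraries, and it was also not called on the table of the pair alone (-0.78, adjusted p = 0.0880) or with spike-in centring (-0.73, adjusted p = 0.0602). For Axl loss in control cells, the call was lost without SNU449 control replicate 3 or SNU449-Axl- control replicate 2 or 3 (-0.91 to -0.51), on the table of the pair (-0.81, adjusted p = 0.115) and with spike-in centring (-0.55, adjusted p = 0.132). The interaction was lost only without SNU449-Axl- Rego replicate 2 (1.15, adjusted p = 0.0561).

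The non-classical chains HLA-E, which presents leader peptides to NKG2A receptors, and HLA-F were not called in any comparison. HLA-E ranged from 239 to 360 in SNU449 control, 351 to 427 in SNU449-Rego, 304 to 324 in SNU449-Axl- control and 354 to 538 in SNU449-Axl- Rego cells. The Rego differences of HLA-E were 0.39 (95% interval -0.04 to 0.83) and 0.50 (95% interval 0.06 to 0.93) in the 2 backgrounds. HLA-F stayed between 40 and 72 in all 12 libraries.

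The promoters of class I genes are known to hold a binding site for interferon regulatory factors (ISRE), a nuclear factor kappa B (NF-kB) site and an inverted CCAAT box. Windows are shown from 250 bases before to 50 bases after the RefSeq start of the gene (GRCh38.p14). They are those of B2M, HLA-B and HLA-C, which were lower in SNU449-Axl- control cells, and of PSMB9 and TAP1. The RefSeq starts of PSMB9 and TAP1 lie close together in opposite directions, and PSMB9 was called while TAP1 was not. In the annotation of the library values, PSMB9 begins at chr6:32844136 and HLA-B, on the minus strand, at chr6:31367067, away from the windows shown. Capitals mark matches, on either strand, to GAAANNGAA for the ISRE core, TTCNNNGAA for the gamma-activated site, GGANTNNCC for the NF-kB core and ATTGG for the inverted CCAAT box.
B2M, chr15:44711267-44711566, plus strand: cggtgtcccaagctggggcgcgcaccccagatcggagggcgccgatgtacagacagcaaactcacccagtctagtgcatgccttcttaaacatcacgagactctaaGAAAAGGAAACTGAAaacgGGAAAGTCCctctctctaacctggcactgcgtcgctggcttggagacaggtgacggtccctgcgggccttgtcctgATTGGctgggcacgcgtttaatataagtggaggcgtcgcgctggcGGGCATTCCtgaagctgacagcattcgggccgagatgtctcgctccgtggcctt
HLA-B, chr6:31357130-31357429, minus strand: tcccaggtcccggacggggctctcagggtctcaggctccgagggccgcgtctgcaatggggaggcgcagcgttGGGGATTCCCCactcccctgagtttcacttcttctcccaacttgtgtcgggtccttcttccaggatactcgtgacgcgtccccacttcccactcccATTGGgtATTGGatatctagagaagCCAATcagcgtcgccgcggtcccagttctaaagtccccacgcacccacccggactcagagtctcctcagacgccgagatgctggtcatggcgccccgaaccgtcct
HLA-C, chr6:31272043-31272342, minus strand: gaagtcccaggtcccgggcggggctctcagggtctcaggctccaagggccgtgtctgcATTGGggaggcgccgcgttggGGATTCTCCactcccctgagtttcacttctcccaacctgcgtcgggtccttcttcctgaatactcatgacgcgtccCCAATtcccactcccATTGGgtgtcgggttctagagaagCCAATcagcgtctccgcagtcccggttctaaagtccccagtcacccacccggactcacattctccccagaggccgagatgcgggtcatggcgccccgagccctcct
PSMB9, chr6:32853942-32854241, plus strand: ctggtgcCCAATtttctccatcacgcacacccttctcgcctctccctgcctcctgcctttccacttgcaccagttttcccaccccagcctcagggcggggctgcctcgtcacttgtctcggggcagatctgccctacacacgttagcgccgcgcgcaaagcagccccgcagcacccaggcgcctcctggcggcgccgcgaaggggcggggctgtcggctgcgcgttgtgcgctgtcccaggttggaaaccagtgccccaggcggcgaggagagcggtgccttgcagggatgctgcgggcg
TAP1, chr6:32853655-32853954, minus strand: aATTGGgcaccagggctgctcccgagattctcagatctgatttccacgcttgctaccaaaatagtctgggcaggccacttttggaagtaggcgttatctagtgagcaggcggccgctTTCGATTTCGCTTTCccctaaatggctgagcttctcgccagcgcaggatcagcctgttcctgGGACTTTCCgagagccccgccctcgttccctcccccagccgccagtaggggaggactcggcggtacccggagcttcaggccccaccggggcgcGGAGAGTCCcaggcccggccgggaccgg

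In the B2M window, 2 overlapping ISRE cores began 144 and 138 bases before the start, followed by NF-kB cores at 125 and 4 bases and an inverted CCAAT box at 49 bases. HLA-B held 2 NF-kB cores that overlap on opposite strands, at 177 and 175 bases before the start, and HLA-C held 1 at 171 bases. The 3 inverted CCAAT boxes of HLA-B and the 4 of HLA-C are short motifs that occur in 34.6% of the 35116 promoter windows of this length. No match to the ISRE core letters lies in the HLA-B, HLA-C or PSMB9 windows, and TAP1 had 2 overlapping ones at 133 and 127 bases, read from the opposite strand. The HLA-B and HLA-C windows do hold the stretch tttcacttc, a related arrangement that the letters GAAANNGAA cannot match. The lack of a match is therefore not the lack of an ISRE. Windows were found for 27 of the 32 genes, with none for HLA-E, HLA-DRA, NLRC5, PDIA3 and PDCD1LG2.

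Of these 27 windows, 12 held an ISRE core, which 8.11% of all promoter windows hold, 8 an NF-kB core, against 14.2%, 17 an inverted CCAAT box and 1 a gamma-activated site, that of CD274, against 7.66%. Of the 7 genes that were lower than in SNU449 control cells and had a window, 3 held an ISRE core, 3 an NF-kB core and 5 an inverted CCAAT box. TAP1, TAP2 and TAPBP held ISRE cores and were not called in any comparison. A match is a stretch of letters and not a bound site. A window without a match can still hold a site, so these counts cover only the letters searched.

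Genes of peptide transport and loading showed no common direction. TAP1 and TAP2, the subunits of the peptide transporter, and TAPBP, coding for tapasin that bridges the transporter and class I molecules, were not called. TAP1 ranged from 200 to 243 in SNU449 control, 208 to 331 in SNU449-Rego, 150 to 212 in SNU449-Axl- control and 181 to 223 in SNU449-Axl- Rego cells, with overlapping groups in each comparison. The Rego difference of TAP2 was -0.47 in SNU449 and -0.42 in SNU449-Axl- cells, and that of TAPBP was 0.51 and 0.57, all with adjusted p between 0.0990 and 0.249. CANX, the chaperone calnexin, lay between 3206 and 4096 in all libraries, and its 5 comparisons gave values from -0.04 to 0.13.

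CALR (ENSG00000179218.15, chr19:12938578-12944489, plus strand) encodes calreticulin, a chaperone of the loading complex that also buffers calcium and can act as an uptake signal on dying cells. Its values were 1659, 1536 and 1563 in SNU449 control, 2205, 2276 and 1760 in SNU449-Rego, 2674, 2860 and 3208 in SNU449-Axl- control and 1524, 1491 and 1689 in SNU449-Axl- Rego cells. The SNU449-Axl- control libraries were the highest, and SNU449-Axl- Rego libraries were at the level of SNU449 control. CALR rose by 0.87 with Axl loss in control cells (SE 0.179, adjusted p = 0.00503) and fell by 0.89 with Rego resistance in SNU449-Axl- cells (SE 0.179, adjusted p = 0.00716).

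In SNU449 cells CALR differed by 0.38 with Rego resistance (SE 0.179, adjusted p = 0.224), and the interaction was -1.27 (SE 0.253, adjusted p = 0.00527), the only called one of the group that was more negative in SNU449-Axl- cells. The fall in SNU449-Axl- cells was not called without SNU449-Axl- Rego replicate 1 or 2, with values between -0.97 and -0.80. PDIA3, the disulfide isomerase ERp57 that works with calreticulin, was not called. Its Rego difference was -0.76 in SNU449-Axl- (adjusted p = 0.0583) and -0.57 in SNU449 cells (adjusted p = 0.137).

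TAPBPL (ENSG00000139192.12, chr12:6451690-6466517, plus strand) encodes TAPBPR, a tapasin relative that edits the peptides on class I molecules. Its values were 49, 55 and 58 in SNU449 control, 47, 57 and 46 in SNU449-Rego, 43, 40 and 39 in SNU449-Axl- control and 81, 66 and 78 in SNU449-Axl- Rego cells. Every SNU449-Axl- Rego library was above all others. TAPBPL rose by 0.86 with Rego resistance in SNU449-Axl- cells (SE 0.186, adjusted p = 0.0119), against -0.11 in SNU449 cells (SE 0.186, adjusted p = 0.790), with an interaction of 0.97 (SE 0.263, adjusted p = 0.0338).

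The rise of TAPBPL was not called without SNU449-Axl- control replicate 2 or SNU449-Axl- Rego replicate 1 or 3 (0.78 to 0.98). Its interaction was lost in 8 of the 12 fits that leave out 1 library (0.89 to 1.10) and with spike-in centring (1.06, adjusted p = 0.0585). TAPBPL shares 4281 bases with VAMP1 on the opposite strand, and the strand setting of the counting is not given in the sources used here.

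**Figure D2:**
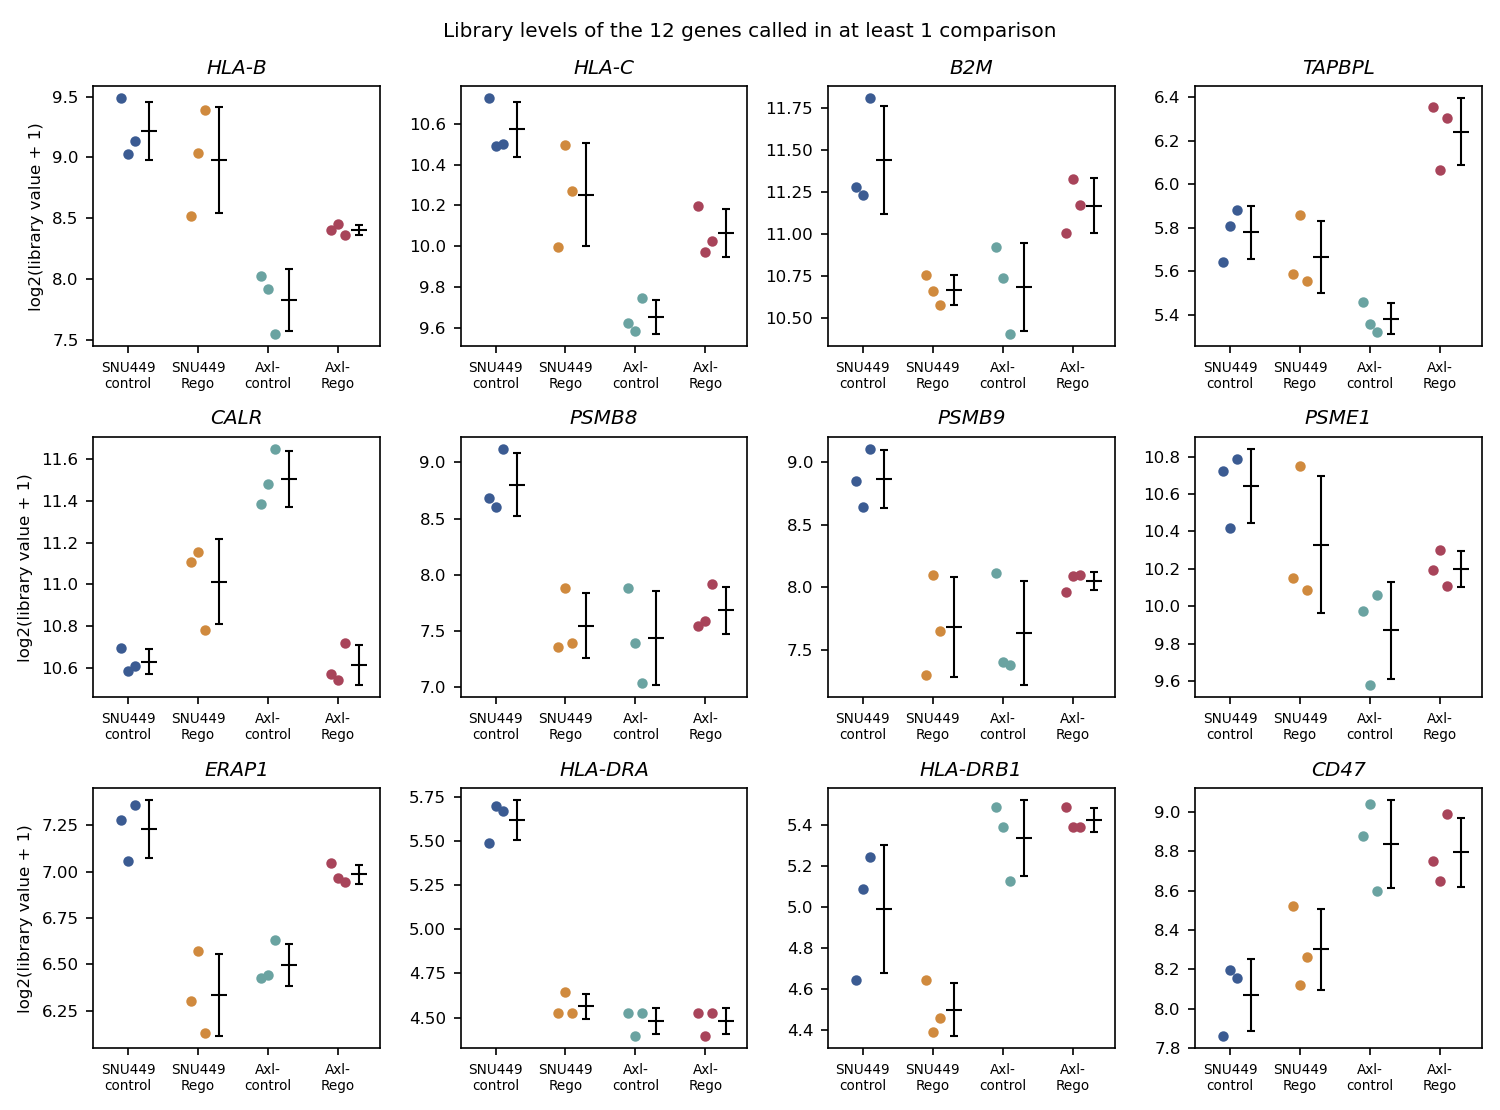
Library levels, as log2(library value + 1) on the vertical axis, of the 12 genes called in at least 1 comparison, with 1 point per library, 4 groups along the horizontal axis, and the group mean ± SD (n = 3) as a black bar. Each vertical axis has its own range, and SNU449 control libraries are the highest for PSMB8, PSMB9, ERAP1 and HLA-DRA.

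The immunoproteasome subunits had the largest interactions of the group. PSMB8 (ENSG00000204264.12, chr6:32840717-32844679, minus strand), the subunit LMP7, had library values of 410, 388 and 556 in SNU449 control, 163, 234 and 167 in SNU449-Rego, 234, 167 and 130 in SNU449-Axl- control and 185, 191 and 241 in SNU449-Axl- Rego cells. PSMB9 (ENSG00000240065.8, chr6:32844136-32859851, plus strand), the subunit LMP2, had 460, 399 and 551, then 157, 273 and 200, then 276, 168 and 166, and finally 249, 272 and 273 in the same order of groups. For both genes the SNU449 control libraries lay above all other 9 libraries, which overlapped among the 3 remaining groups.

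PSMB8 fell by 1.26 with Rego resistance in SNU449 (SE 0.237, adjusted p = 0.00238), or 2.40-fold, and PSMB9 fell by 1.18 (SE 0.238, adjusted p = 0.00407), or 2.27-fold. These folds are those of the library values. The means solved from the authors' counts fell further, from 438.4 in SNU449 control to 143.4 in SNU449-Rego for PSMB8 and from 463.0 to 164.2 for PSMB9. With Axl loss in control cells PSMB8 fell by 1.37 (adjusted p = 0.00153) and PSMB9 by 1.23 (adjusted p = 0.00339). In SNU449-Axl- cells the Rego differences of 0.25 (95% interval -0.25 to 0.75) for PSMB8 and 0.42 (95% interval -0.08 to 0.92) for PSMB9 were not called. The interactions of 1.51 for PSMB8 (SE 0.336, adjusted p = 0.0112) and 1.60 for PSMB9 (SE 0.337, adjusted p = 0.00800) passed the test, and none of these 6 calls was lost when 1 library was left out.

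PSMB8 and PSMB9 lie on opposite strands and share 544 bases, and PSMB9 also overlaps TAP1 by 8608 bases in this annotation. The antisense gene PSMB8-AS1, which overlaps all 3, was not called, at -0.48 with Rego resistance in SNU449 (adjusted p = 0.215) and -0.61 with Axl loss in control cells (adjusted p = 0.107). Without the strand setting, reads of these neighbours cannot be told apart.

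PA28 is the ring-shaped activator of the proteasome that interferon-gamma raises, built of PSME1 and PSME2. PSME1 (ENSG00000092010.15, chr14:24136163-24138967, plus strand) had values of 1692, 1366 and 1768 in SNU449 control, 1136, 1721 and 1087 in SNU449-Rego, 1005, 762 and 1067 in SNU449-Axl- control and 1169, 1261 and 1101 in SNU449-Axl- Rego cells. It fell by 0.77 with Axl loss in control cells (SE 0.212, adjusted p = 0.0324), whereas SNU449-Rego libraries overlapped with SNU449 control. PSME2 gave -0.53 in the same comparison (SE 0.199, adjusted p = 0.122) and was not called.

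The PSME1 call was lost without SNU449 control replicate 1 or 3, SNU449-Axl- control replicate 2 or SNU449-Axl- Rego replicate 1 (-0.92 to -0.58), and with spike-in centring (-0.57, adjusted p = 0.112). The standard proteasome was followed as a list of 16 genes, PSMA1 to PSMA7, PSMB1 to PSMB7, the assembly factor POMP and the activator PSME3. None of the 16 was called with limma in any of the 5 comparisons, with 4, 2, 3, 2 and 1 of them at an unadjusted p under 0.05, and their median was -0.22 for Rego resistance in SNU449 and -0.29 for Axl loss in control cells.

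The aminopeptidase ERAP1 (ENSG00000164307.13, chr5:96760810-96808100, minus strand) trims peptides in the endoplasmic reticulum to the length that class I molecules hold. Its values were 154, 132 and 163 in SNU449 control, 78, 94 and 69 in SNU449-Rego, 85, 86 and 98 in SNU449-Axl- control and 131, 124 and 122 in SNU449-Axl- Rego cells. The libraries of the 2 groups in the middle of this list did not reach those of the first and the last. ERAP1 fell by 0.90 with Rego resistance in SNU449 (SE 0.190, adjusted p = 0.00593) and by 0.73 with Axl loss in control cells (SE 0.190, adjusted p = 0.0238).

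In SNU449-Axl- cells the Rego difference of ERAP1 was 0.48 (SE 0.190, adjusted p = 0.165), and the interaction of 1.38 was called (SE 0.269, adjusted p = 0.00460). The Axl difference in control cells was not called without SNU449 control replicate 1 or 3 or SNU449-Axl- control replicate 1 or 2 (-0.84 to -0.65), or with spike-in centring (-0.53, adjusted p = 0.120). On the tables of the pairs, ERAP1 gave -0.69 for Rego in SNU449 (adjusted p = 0.0532) and -0.59 for Axl loss in control cells (adjusted p = 0.0682). ERAP1 shares 18786 bases with CAST on the opposite strand. ERAP2, its partner enzyme, was not called, with values from -0.36 to 0.50 over the 5 comparisons.

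NLRC5, the transactivator of class I genes, was weakly expressed and not called. Its values were 40, 63 and 54 in SNU449 control, 40, 44 and 24 in SNU449-Rego, 39, 27 and 47 in SNU449-Axl- control and 44, 36 and 44 in SNU449-Axl- Rego cells. The Rego difference in SNU449 was -0.55 (95% interval -1.08 to -0.02, adjusted p = 0.220) and the Axl difference in control cells -0.47 (95% interval -1.01 to 0.06, adjusted p = 0.293). The groups of NLRC5 overlapped in each of the 4 comparisons.

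Of 21 interferon signaling and transactivator genes counted beside the group, 4 were called for Rego in SNU449, 1 for Rego in SNU449-Axl-, 3 for Axl loss in control cells, 3 for Axl loss in Rego-resistant cells and 2 for the interaction, against 7.81%, 4.35%, 7.45%, 4.37% and 5.87% of all genes. IRF1, a transcription factor of class I and immunoproteasome genes, had values of 759, 451 and 521 in SNU449 control, 282, 395 and 235 in SNU449-Rego, 202, 263 and 385 in SNU449-Axl- control and 347, 320 and 318 in SNU449-Axl- Rego cells. IRF1 fell by 0.92 with Rego resistance in SNU449 (adjusted p = 0.0326) and by 1.04 with Axl loss in control cells (adjusted p = 0.0170), again with all SNU449 control libraries on top.

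SOCS1, an interferon-induced inhibitor of Janus kinases, fell by 1.09 with Rego resistance in SNU449 (adjusted p = 0.00311) and by 0.92 with Axl loss in control cells (adjusted p = 0.0117), with values of 72, 69 and 63 in SNU449 control and 41 or less in all other libraries. Its solved means were 41.1 in SNU449 control, 5.02 in SNU449-Rego, 9.71 in SNU449-Axl- control and 1.35 in SNU449-Axl- Rego cells. Not every table of pairs lists SOCS1. It may have entered in part through SNU449 control, the group in which it is high, and its calls, counted above, carry this limit. RFXANK, a subunit of the factor that binds class II promoters, moved the other way, by 0.99 with Rego resistance in SNU449 (adjusted p = 0.00318) and -0.81 in SNU449-Axl- cells (adjusted p = 0.0221), with an interaction of -1.79 (adjusted p = 0.000687). For Axl loss RFXANK gave 0.92 in control cells (adjusted p = 0.00604) and -0.88 in Rego-resistant cells (adjusted p = 0.0133). The remaining calls were NFYA, higher by 0.71 with Rego resistance in SNU449 (adjusted p = 0.0354), JAK1, higher by 0.68 with Axl loss in Rego-resistant cells (adjusted p = 0.0459), and TYK2, at -0.79 in the same comparison (adjusted p = 0.0227) and -1.27 for the interaction (adjusted p = 0.00842).

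Class II genes other than HLA-DMB were weak, with authors' mean normalized counts between 3.05 for CD74 and 8.16 for HLA-DMA. HLA-DRA (ENSG00000204287.14, chr6:32439878-32445046, plus strand), the alpha chain of HLA-DR, had a mean of 5.14 and library values of 44, 51 and 50 in SNU449 control and of 20 to 24 in the other 9 libraries, where the scale levels off. All 3 tables of pairs with SNU449 control list it, and the other 3 do not. Its differences of -1.06 for Rego in SNU449, -1.14 for Axl loss in control cells and 1.06 for the interaction are therefore given as a description, and no fold is stated.

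HLA-DRB1 (ENSG00000196126.12, chr6:32577902-32589848, minus strand), a beta chain of HLA-DR, had values of 24, 33 and 37 in SNU449 control, 24, 20 and 21 in SNU449-Rego, 44, 41 and 34 in SNU449-Axl- control and 44, 41 and 41 in SNU449-Axl- Rego cells. It was called higher in SNU449-Axl- Rego than in SNU449-Rego cells, by 0.93, where the SNU449-Rego libraries lie at the lower end of the scale. All tables of pairs with SNU449-Axl- libraries list it, and that of SNU449 control and SNU449-Rego does not. It thus entered through the groups in which it is high, and this call is given as a description. This call was lost without SNU449-Rego replicate 2 or SNU449-Axl- Rego replicate 1 or 2 (0.85 to 1.02), and the gene drops out with a minimum mean count of 10, which left 0 of 24 genes called in this comparison and 8 at an unadjusted p under 0.05. HLA-DRB1 has close relatives and varies between alleles, so that its reads are uncertain.

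HLA-DMA and HLA-DMB, which exchange peptides on class II molecules, and CD74, the invariant chain, were not called. HLA-DMB was the best-measured class II gene, with an authors' mean normalized count of 68.2, and its libraries ranged from 46 to 90 in SNU449 control and 64 to 166 in SNU449-Rego cells. CD74 had 28, 32 and 36 in SNU449 control and 21 in all 3 SNU449-Axl- control libraries, a difference of -0.58. All 3 tables of pairs with SNU449 control list CD74, but only 1 of the 3 with SNU449-Axl- control does, the one shared with SNU449 control. In this comparison CD74 thus entered through the group in which it is high, and its difference is given as a description.

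Of CD274, PDCD1LG2, CD276 and CD47, CD47 was called and the others were not. CD47 (ENSG00000196776.17, chr3:108043091-108091862, minus strand), which binds SIRP-alpha and restrains phagocytosis by macrophages, had values of 231, 292 and 284 in SNU449 control, 367, 277 and 306 in SNU449-Rego, 469, 525 and 386 in SNU449-Axl- control and 429, 400 and 507 in SNU449-Axl- Rego cells. All SNU449-Axl- libraries were above all SNU449 libraries. CD47 rose by 0.77 with Axl loss in control cells (SE 0.198, adjusted p = 0.0222) and differed by 0.49 in Rego-resistant cells (SE 0.198, adjusted p = 0.183), and the interaction of -0.27 (95% interval -0.86 to 0.31) was not called.

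The CD47 call was lost without SNU449 control replicate 1 or SNU449-Axl- control replicate 1 or 2 (0.63 to 0.93) and on the table of the pair (0.73, adjusted p = 0.0648). With spike-in centring CD47 was also called in Rego-resistant cells, at 0.79 (adjusted p = 0.0335). CD276, coding for the ligand B7-H3, was not called, although its libraries of 108, 101 and 95 in SNU449 control were above those of each other group, 70, 78 and 71 in SNU449-Rego, 74, 77 and 86 in SNU449-Axl- control and 54, 50 and 53 in SNU449-Axl- Rego cells. Its difference was -0.47 for Rego in SNU449 (adjusted p = 0.131) and -0.58 in SNU449-Axl- cells (adjusted p = 0.0741).

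CD274, coding for PD-L1, and PDCD1LG2, coding for PD-L2, were barely detected, with authors' mean normalized counts of 5.56 and 3.99. CD274 values lay between 21 and 46 and those of PDCD1LG2 between 20 and 37 over the 12 libraries, and the groups overlapped. The Rego difference of CD274 was 0.12 (95% interval -0.46 to 0.70) in SNU449 and 0.01 (95% interval -0.57 to 0.59) in SNU449-Axl- cells.

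The stress ligands MICA, MICB, ULBP1 and ULBP2, which activate natural killer cells through NKG2D, were not called in any comparison. MICA had 162, 148 and 145 in SNU449 control, 113, 115 and 130 in SNU449-Rego, 104, 121 and 90 in SNU449-Axl- control and 99, 91 and 110 in SNU449-Axl- Rego cells. Its SNU449 control libraries were the highest, at a difference of -0.34 with Rego resistance (adjusted p = 0.312) and -0.53 with Axl loss in control cells (adjusted p = 0.0942). MICB ranged from 108 to 235, and its Rego difference was 0.50 (95% interval -0.04 to 1.03) in SNU449 and -0.17 (95% interval -0.70 to 0.37) in SNU449-Axl- cells. ULBP1 and ULBP2 had authors' mean normalized counts of 6.71 and 5.08.

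Of 16 other immune ligands counted beside the group, 10 were listed, and 4, 1, 1, 1 and 1 were called in the 5 comparisons, against 7.81%, 4.35%, 7.45%, 4.37% and 5.87% of all genes, so that 1 call of 10 is near the share of all genes. Ligands of the receptors DNAM-1 and TIGIT were higher with Rego resistance in SNU449, PVR by 1.11 (adjusted p = 0.0299) and NECTIN2 by 0.64 (adjusted p = 0.0468). FAS at -0.74 (adjusted p = 0.0231) and LGALS9 at -0.68 (adjusted p = 0.0292) were lower. FAS is counted in this list although it codes for a death receptor and not for a ligand. LGALS9 was weak, with an authors' mean normalized count of 3.95. Its mean log2 level was 5.36 in SNU449 control and 4.58 to 4.77 in the other groups, near the lower end of the scale. NECTIN2 was lower in SNU449-Axl- Rego than in SNU449-Rego cells (-0.83, adjusted p = 0.0179), with an interaction of -1.19 (adjusted p = 0.0126). CD70, the ligand of CD27, was higher by 0.76 with Axl loss in control cells (adjusted p = 0.0203) and lower with Rego resistance in SNU449-Axl- cells (-0.88, adjusted p = 0.0131).

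Of the 32 genes, 15 lie in the MHC region between HLA-F and TAPBP on chromosome 6 (GRCh38 chr6:29722775-33314254), which holds 86 other tested genes. HLA-DRA aside, 14 listed genes remain. With Rego resistance in SNU449, 2 of the 14, PSMB8 and PSMB9, were called lower, whereas 6 of the 86 were called, all higher, with a median of 0.24, against 7.81% of all genes called. With Axl loss in control cells 4 of the 14 were lower, HLA-B, HLA-C, PSMB8 and PSMB9, and 4 of the 86 were called, all higher, with a median of 0.03, against 7.45% of all genes. GNL1, which codes for a GTP-binding protein and lies near HLA-E, rose by 1.03 and 0.84 in these comparisons (adjusted p = 0.00352 and 0.0155) and had an interaction of -1.33 (adjusted p = 0.00925). For the interaction 2 of the 14 were more positive, and 4 of the 86 were called, all more negative, with a median of -0.23, against 5.87% of all genes.

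**Figure D3:**
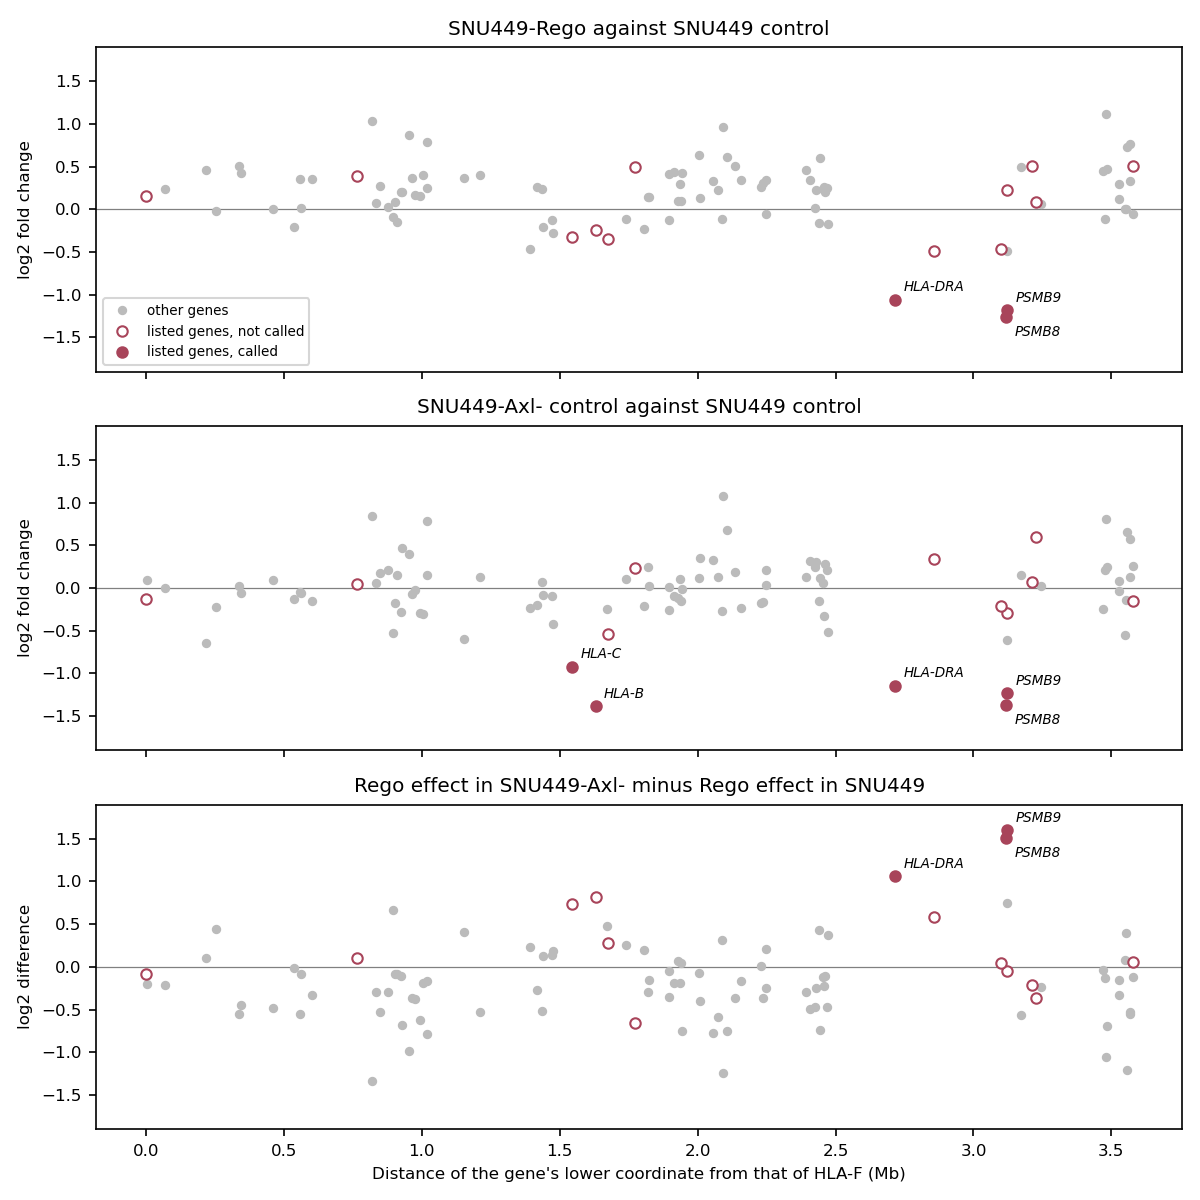
Log2 fold change (vertical axis) of genes in the MHC region by the distance of their lower coordinate from that of HLA-F in Mb (horizontal axis), for Rego resistance in SNU449, Axl loss in control cells and the difference of the Rego effect. Grey points are the 86 other genes, open circles are listed genes that were not called, and filled circles with names are called ones, which lie below 0 in the upper panels and above 0 in the lowest.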

How the data were processed

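QuantSeq 3′ mRNA libraries of the 4 groups were analysed from the tables that the authors deposited, of which 6 hold the libraries of a pair of groups and 2 hold all 12. The authors removed poly-A ends with cutadapt 4.0 and aligned the reads with STAR 2.5.3a (both also named in the submitters' processing notes) to GRCh38 with GENCODE annotation and spike-ins, obtained counts for each gene, left out weak genes and ran DESeq2 on them, with preparation dates as a term. The library values are scores that the authors made by removing the preparation effect from variance-stabilized levels, taking 2 to their power and rounding, and they are not counts. The baseMean signal is the mean count of a gene, which the authors had divided by size factors. The columns with the authors' fold changes, their errors, statistics and p-values, and with group averages, were not used. The depth per library is unknown, and no interval that needs it is given. Summed over a table, the mean counts gave 4156990 to 4914890. Weak genes have fewer reads and are less certain.

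The limma package (3.58.1, R 4.3.3) was used to fit differences (lmFit, contrasts, eBayes with trend) on log2(value + 1) of the table that compares the backgrounds over all 12 libraries, for 15601 genes without spike-in RNAs, with the replicate number from the titles as a block, and p-values were adjusted by Benjamini-Hochberg over all genes. Intervals are the 95% intervals of this fit. The block was used since the preparation effect was removed along the replicate number, as the deviation of a replicate number from the mean was at most 0.00126 in each table, at the median of genes, against 0.0619 to 0.122 for a library. This removal makes same-numbered libraries deviate in opposite directions, so that pairing cannot be checked from these values.

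Tables were joined and promoters searched with Python 3.11.15, numpy 2.4.6 and pandas 2.3.3. Gene positions are those of the deposited tables, and promoter windows come from RefSeq, taking for each gene the window whose start is nearest to that of the tables. All genes of the list were named, and library values given for those called. Genes of the other lists were named where called with a log2 fold change of 0.5 or more in either direction or where a result turned on them. Members and lists were chosen with earlier results of these data known. Alternatives were the fit without the block, the tables of pairs, the other table over all libraries, no pseudocount, a minimum mean count of 10, centring on the median or on spike-in RNAs, and leaving out each library.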

Additional observations from a re-analysis of the deposited data

Results flagged for a closer look

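For 7 of the 32 genes the Rego effect differed between SNU449-Axl- and SNU449 cells by the test of the interaction itself. The difference, given as the log2 effect in SNU449-Axl- minus that in SNU449 cells, was 1.60 for PSMB9, 1.51 for PSMB8, 1.38 for ERAP1, 1.26 for B2M, 1.06 for HLA-DRA, 0.97 for TAPBPL and -1.27 for CALR. HLA-DRA entered the tables through SNU449 control, the group in which it is high, so that its value is a description. In PSMB9, PSMB8, ERAP1 and B2M the Rego effect passed the test in SNU449 cells, and in TAPBPL and CALR it passed in SNU449-Axl- cells. With 3 libraries per group, single libraries were not screened for outliers.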

How the results depend on the processing

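Of the 25 called values of the 12 genes, all kept their direction under every alternative in which they were computed, and all stayed called without the replicate block, without a pseudocount, with median centring and on the other table over all libraries. Spike-in centring lost 5 of 25 calls, and the tables of the pairs with the replicate block lost 5 of 18. With the replicate block left out, 7, 5, 13 and 4 of the 32 genes were called for Rego in SNU449, Rego in SNU449-Axl-, Axl loss in control and Axl loss in Rego-resistant cells, and 8 for the interaction, against 5, 2, 10, 1 and 7 with it. Over all genes these fits called 2175, 1552, 2182, 1503 and 1826 genes without the block, against 1219, 678, 1163, 682 and 916 with it. On the tables of the pairs, 3, 2, 7 and 2 of the listed genes were called with the block and 10, 12, 17 and 11 without it, and over all genes 603, 818, 603 and 1160 with the block and 2947, 3566, 3750 and 4024 without it. Axl loss in Rego-resistant cells gave 0 called with a minimum mean count of 10, since HLA-DRB1 then was not tested, and 6, all higher, with spike-in centring, which called 1799 of all genes. Leaving out 1 library gave 4 to 6, 0 to 3, 6 to 10, 0 to 2 and 6 to 7 of the 32 genes in the order of comparisons above, while the genes called over all ranged from 740 to 1299, 205 to 891, 540 to 1275, 219 to 826 and 523 to 922. The cause of these differences was not tested. Weak genes, among them the class II genes other than HLA-DMB, CD274, PDCD1LG2, ULBP1 and ULBP2, lie near the lower end of the scale, where fold changes are understated. HLA-DRA and HLA-DRB1 are counted in the numbers here wherever they were tested, although they entered the tables through the groups in which they are high.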
